A study of Mus musculus with 4 samples.

Results

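Messages of FAK, paxillin and ILK adhesion signalling were measured in the pseudopodia and cell bodies of mouse fibroblasts. The 10 genes are the kinases Ptk2 (focal adhesion kinase, FAK) and Src, the Src substrate Bcar1 (Cas), the adaptor Pxn (paxillin), the paxillin-bound Git1 and Git2, and Ilk, Lims1 (PINCH), Parva and Fermt2 of the integrin-linked kinase complex and its kindlin partner. Members were all probe sets, groups of array probes read as 1 value, whose only symbol in the platform annotation was one of these genes. There were 24 such probe sets out of 34945 with a single symbol, and they covered 9 of the 10 genes; Ptk2 was not analysed here. Of the 24, 20 lay above the filter on dim probe sets (a mean log2 value of at least 5.42, an intensity of 42.0), among 22519 probe sets that did. All 9 genes kept at least 1 probe set, among 11320 genes tested.

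RNA came from 4 samples of NIH/3T3 cells, a line of mouse embryo fibroblasts, with 1 array for each of 2 pseudopodia samples and 2 cell body samples. All cells sat in medium without serum on a porous membrane whose lower face carried fibronectin. They sent protrusions through the pores for 1 h before fixation in 0.3% formaldehyde for 10 min. The fixation of all 4 samples was reversed at 70 °C for 45 min. Pseudopodia were scraped from the lower face after the cell bodies had been wiped away by hand, and cell bodies were collected the opposite way, so each fraction may hold some of the other. The series calls the samples of a compartment independent. Separate cultures are not stated, so each p-value reflects the spread of these 4 samples alone, and that spread may be technical.

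When integrins bind fibronectin they cluster and recruit FAK, which binds Src, and the pair phosphorylate paxillin and Cas. Phosphorylated Cas recruits Crk and through it the Rac activator DOCK1, while paxillin brings in the GIT proteins with their PIX and PAK partners. On a separate arm, ILK, PINCH and parvin form a complex that, with kindlin bound to the integrin tail, ties the receptor to actin. The comparison asks whether the messages for these proteins take a different share of the RNA in protrusions than in the rest of the cell.

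The intensities are on a linear scale with a lowest value of 20, which marks an upper bound. Differences are of log2(intensity + 1), pseudopodia minus cell body, which understates changes of dim genes. Calls are limma adjusted p-values under 0.05 over all genes or all probe sets tested. Unless stated otherwise, values for a gene at its brightest probe set come from the fit over genes. Those for its other probe sets come from the fit over probe sets, so their adjusted p-values are not on the same footing. An intensity reflects a share of the labelled RNA, so less of a message and more of the other RNA cannot be told apart. Array medians ran from 40.5 to 45.6. Of 10 fibroblast markers, 8 lay above the filter, while Thy1 and Fap sat at the lowest value on all arrays, and the list summed to 53969 and 54867 on the pseudopodia arrays against 69449 to 74756 on the cell body arrays. Of 6 epithelial markers 4 lay above the filter, with sums of 699.6 to 703 against 774 to 1024, and of 5 haematopoietic markers 2 did, with sums of 315 to 331 against 338 to 416. Of 4 endothelial markers 0 did, with Pecam1 at the lowest value throughout and sums of 99.9 to 180.4 against 98.2 to 101. The bacterial BioB, BioC and BioD controls, which are added to the hybridization mix, read higher on both pseudopodia arrays at 7 of 7 probe sets, by a median log2 of 0.43, whereas the Cre controls differed by -0.036 and 0.023. For Actb, 3' signal exceeded 5' signal by a log2 of 0.56 and 0.65 in pseudopodia and of 0.37 and 0.36 in cell bodies. The same value for Gapdh was -0.075 and -0.066 in pseudopodia and -0.095 and -0.098 in cell bodies. For pyruvate carboxylase it was 2.61 and 2.32 against 2.54 and 2.25, which overlapped. In the middle of 18S ribosomal RNA, pseudopodia replicate 2 read 1970 against 110.9 to 308 on the other arrays. The part of these differences in the results below was not tested.

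Of the 9 member genes tested, Lims1 rose in pseudopodia and no member fell. The share of members called, 11.1%, lay near that of all genes tested, 14.6%, of which 5.92% rose and 8.69% fell. At an unadjusted p under 0.05 there were 3 members, Lims1 and Fermt2 above 0 and Ilk below, which is 33.3% against 31.4% of all genes tested. The median log2 difference over the 9 members was -0.069, and over all genes tested it was -0.0020. Apart from Lims1, the members lay between -0.38 for Ilk and 0.47 for Fermt2. On 5 of the 9 genes the pseudopodia and cell body arrays did not overlap, a share of 55.6% against 60.8% of all genes tested. Of 20 member probe sets tested on their own, limma called 1, which was higher in pseudopodia, and 0 lower, against 11.7% of all probe sets called, 4.30% higher and 7.44% lower. At an unadjusted p under 0.05 there were 7, or 35.0% against 29.5% of all probe sets, of which 4 were higher and 3 lower. Arrays of the compartments did not overlap at 12 of these 20, against 59.6% of all probe sets above the filter.

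**Figure D1:**
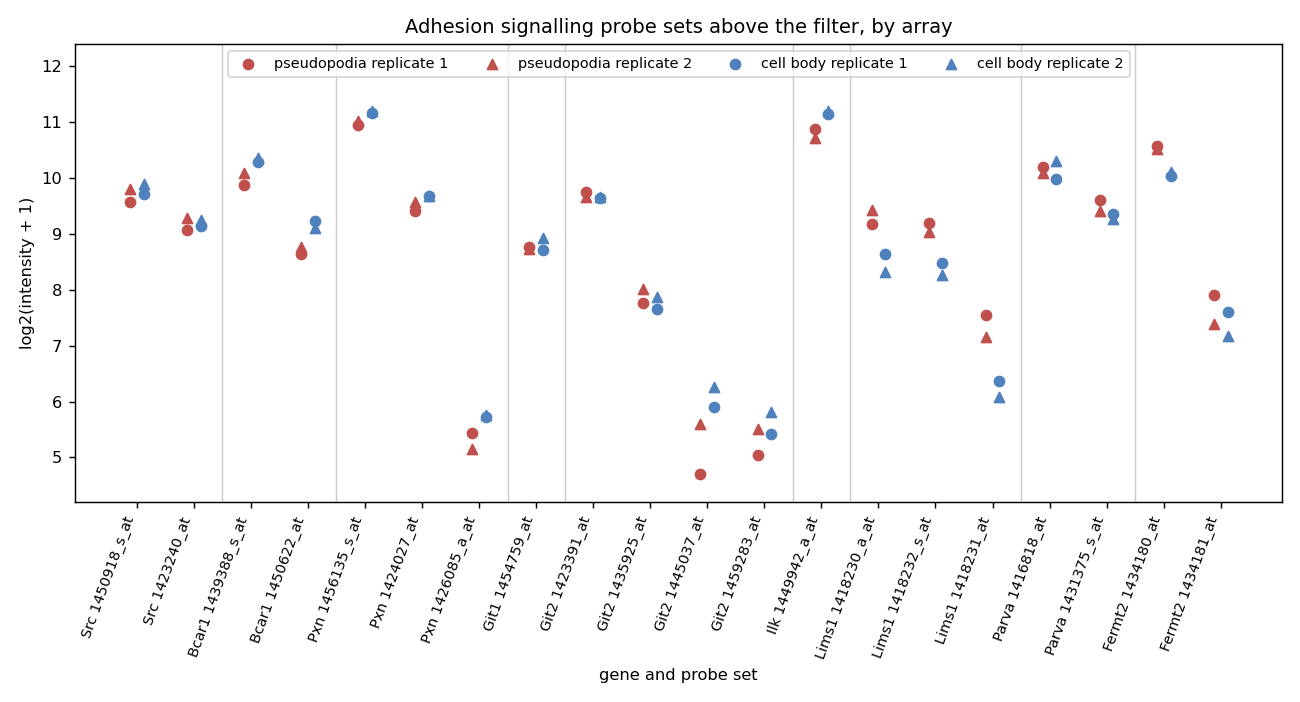
Level of each of the 20 member probe sets above the filter on the 4 arrays, as log2(intensity + 1), with pseudopodia in red, cell bodies in blue, circles for replicate 1 and triangles for replicate 2. All 3 Lims1 probe sets read higher on both pseudopodia arrays, both Bcar1 and all 3 Pxn probe sets read lower there, and those of Src overlap; levels of different probe sets cannot be set against each other.

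Lims1 encodes PINCH, the LIM-domain adaptor that binds ILK and carries it to adhesions. Its brightest probe set, 1418230_a_at, read 578 and 689 in pseudopodia and 397 and 320.5 in cell bodies. Both pseudopodia arrays thus lay above both cell body arrays. Lims1 rose 1.77-fold, by 0.82 on the log2 scale (SE 0.18, 95% interval 0.36 to 1.28, n = 2 per compartment, limma adjusted p = 0.0460). Among all genes tested, 5.34% had a larger difference.

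The other probe sets of Lims1 above the filter read in the same direction. Probe set 1418231_at read 187 and 142 in pseudopodia and 81.7 and 67.0 in cell bodies, a rise of 2.19-fold, or 1.13 on the log2 scale (SE 0.21, limma adjusted p = 0.0390 over all probe sets). Probe set 1418232_s_at read 585 and 522 against 358 and 306, a log2 difference of 0.74 (SE 0.16), at an adjusted p of 0.0562. In that same fit, over probe sets, the brightest one had an adjusted p of 0.0606. All 3 probe sets therefore separated the compartments, as did 59.6% of all probe sets above the filter. Only 1 of the 3 passed the probe set test. The 3 are readings of 1 message on the same arrays and may share target sequence, and they are not replicates. The last pair of Lims1 probe sets held almost no signal: 1441411_at stood at 20 on all 4 arrays, and 1443947_at at 20 on 3 of them and at 31.6 on pseudopodia replicate 2.

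The Lims1 call rests on all 4 arrays, as do the calls of all genes here. A fit with 1 array left out has a lone array in a compartment and loses every call. With any 1 array left out, the log2 difference of Lims1 stayed between 0.67 and 0.97. Leaving out pseudopodia replicate 2, the array with the high 18S reading, gave 0.69.

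Genes closest to Lims1 in their pattern, by the Euclidean distance between log2 values centred on each gene's mean over the 4 arrays, were Cibar1 at a distance of 0.057, Tlx2 at 0.061 and Ncoa2 at 0.064. Their log2 differences were 0.84, 0.81 and 0.79. With 4 arrays such a distance describes little beyond the size of the compartment difference and of the replicate spread.

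ILK, the pseudokinase at the centre of the complex, has a single probe set on the array. Ilk read 1880 and 1692 in pseudopodia and 2269 and 2359 in cell bodies. The pseudopodia arrays were the lower pair and did not overlap with the others. Its log2 difference of -0.38 (SE 0.14, 95% interval -0.73 to -0.024) had an unadjusted p of 0.0405 and did not pass after adjustment over all genes (limma adjusted p = 0.140). In the fit over probe sets the interval reached from -0.76 to 0.0095 (limma adjusted p = 0.177). Among the alternative runs Ilk passed only with a variance prior that follows the mean level (0.0344). With quantile normalization its difference was -0.26 (adjusted p = 0.270).

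Parva encodes alpha-parvin, the actin-binding subunit. Its brightest probe set read 1172 and 1087 in pseudopodia and 1007 and 1267 in cell bodies. The cell body arrays enclosed the pseudopodia arrays, so that the log2 difference was -0.0011 (SE 0.17, 95% interval -0.44 to 0.43). The other Parva probe set, 1431375_s_at, read 775 and 683 against 657 and 618, which is 0.19 higher on the log2 scale (SE 0.15, adjusted p = 0.469). The sign of the Parva difference turned with quantile normalization (0.099), median centring (0.039) and the mean of its probe sets (0.096), and none of these passed the test.

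Fermt2 encodes kindlin-2, which binds integrin tails and recruits the ILK complex. Its brightest probe set, 1434180_at, read 1517 and 1468 in pseudopodia and 1049 and 1107 in cell bodies. The replicates of each compartment lay close together and the compartments did not overlap. The log2 difference was 0.47, or 1.38-fold (SE 0.13, 95% interval 0.14 to 0.80), with a limma adjusted p of 0.0758. This was the smallest p among the members not called. Fermt2 passed with a stricter filter (0.0254), a variance prior that follows the mean level (0.0211) and quantile normalization (0.0457). With the mean of its probe sets the difference was 0.37 (adjusted p = 0.209). In the fit over probe sets the brightest had an adjusted p of 0.104.

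At a second Fermt2 probe set, 1434181_at, replicates differed more than compartments. It read 240.4 and 166 in pseudopodia and 193 and 143 in cell bodies, a mean log2 difference of 0.27 (SE 0.26) at an adjusted p of 0.561. The third, 1459324_at, was under the filter and was not tested; it read 37.6 and 54.1 against 33.2 and 38.0.

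**Figure D2:**
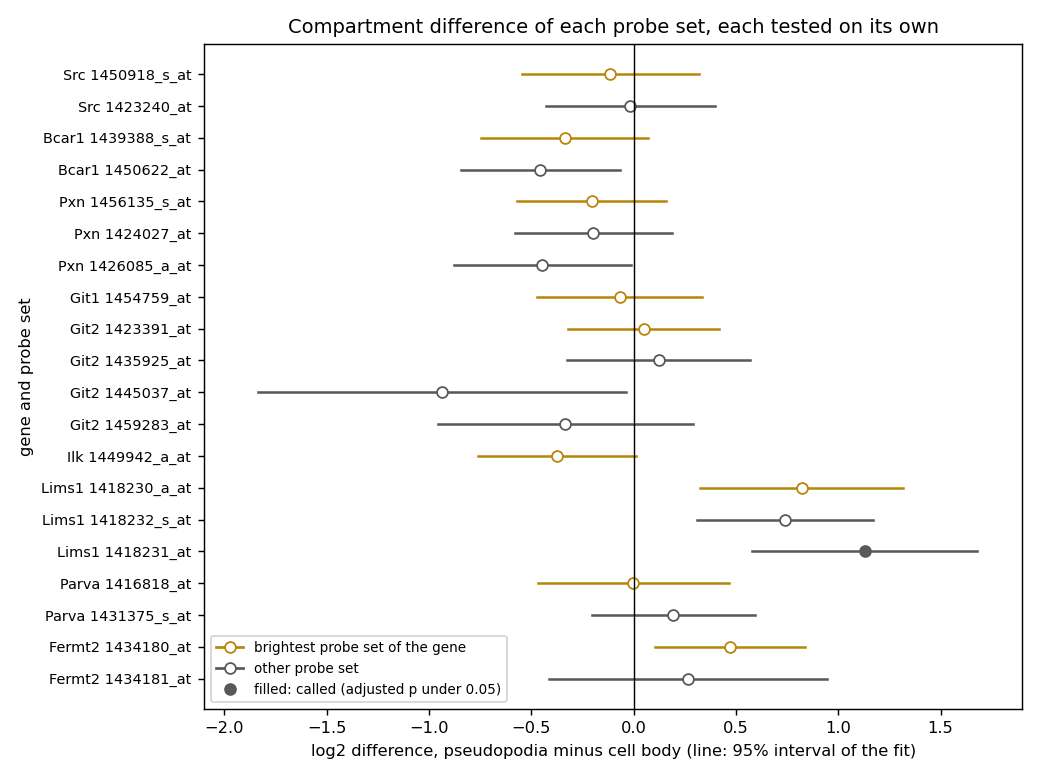
Log2 difference, pseudopodia minus cell body, of each of the 20 member probe sets above the filter, with the 95% interval of the fit over all probe sets; gold marks the brightest probe set of a gene, grey the others, and a filled point a call. The intervals of all 3 Lims1 probe sets lie above 0 before adjustment, and the filled point is 1418231_at at 1.13.

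Ratios between messages of the ILK complex on the same array involve no scaling between arrays. The pairs were chosen after the values had been seen, so their separation restates the differences above and is no further evidence. They were not tested, since an exact permutation test of 2 arrays against 2 cannot give a two-sided p under 0.333. Relative to its mean over the 4 arrays, the log2 ratio of Lims1 to Ilk was 0.40 and 0.80 in pseudopodia and -0.42 and -0.78 in cell bodies. The difference was 1.20 on the log2 scale, so Lims1 gained on Ilk by 2.29-fold in pseudopodia. With the other Lims1 probe sets above the filter the difference was 1.11 for 1418232_s_at and 1.504 for 1418231_at.

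Fermt2 likewise stood higher against Ilk, at 0.37 and 0.47 in pseudopodia and -0.43 and -0.41 in cell bodies, a difference of 0.85. Parva against Ilk differed by 0.37, with the closest arrays at 0.17 in pseudopodia and -0.049 in cell bodies. Lims1 against Parva differed by 0.82, and Lims1 against Rsu1, a PINCH-binding protein from the partner list, by 0.66. Rsu1 against Ilk differed by 0.53. Other pairs of these genes were not computed, so the pairs given do not show that every pair separates. Of 9 ratios computed, Git2 to Git1 and Pxn to Git1 overlapped between compartments, with differences of 0.12 and -0.14. Bcar1 to Src, outside the ILK complex, did not overlap and differed by -0.22. Separation is thus not particular to the ILK complex, and 60.8% of single genes tested also separated.

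**Figure D3:**
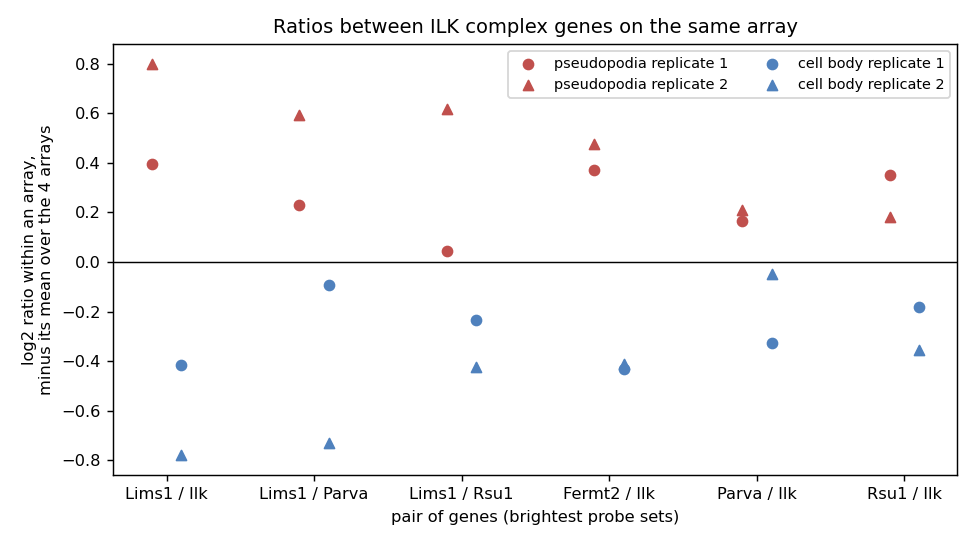
Log2 ratio between messages of the ILK complex on the same array, minus the mean of that ratio over the 4 arrays, for 6 pairs of genes picked after their values were seen; red is pseudopodia, blue is cell body, circles are replicate 1 and triangles replicate 2. In each pair both pseudopodia arrays lie above 0 and both cell body arrays below it, with the widest gap between means for Lims1 over Ilk (1.20). Other pairs of these genes were not computed.

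Neither gene of the FAK, Src and Cas arm that was tested was called. Src, the kinase that joins FAK at adhesions, read 762 and 889 in pseudopodia and 839 and 947 in cell bodies at its brightest probe set, 1450918_s_at. The compartments overlapped, with a log2 difference of -0.12 (SE 0.15, 95% interval -0.51 to 0.28, limma adjusted p = 0.668). The second Src probe set read 537 and 625 against 565 and 608, a difference of -0.016 whose sign turned with quantile normalization (0.057) and median centring (0.024).

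Bcar1, the Cas scaffold that Src phosphorylates, read lower in pseudopodia at both of its probe sets. Its brightest, 1439388_s_at, read 944 and 1094 in pseudopodia and 1248 and 1319 in cell bodies, with a log2 difference of -0.34 (SE 0.14, 95% interval -0.71 to 0.038, limma adjusted p = 0.194). The other, 1450622_at, read 400.1 and 437 against 599 and 550.2, with a difference of -0.46 (SE 0.15). Its adjusted p over probe sets was 0.123, where the brightest had 0.236. Probe set 1450622_at passed with the stricter filter (0.0418). Compartments did not overlap at either probe set, which holds for most probe sets on these arrays.

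Pxn, the adaptor onto which FAK, GIT proteins and the parvins dock, also read lower in pseudopodia at each of its 3 probe sets. At 1456135_s_at, the brightest, it read 1970 and 2066 in pseudopodia and 2302 and 2349 in cell bodies. The log2 difference was -0.20 (SE 0.13, 95% interval -0.54 to 0.13, limma adjusted p = 0.349). At 1424027_at the intensities were 679 and 759 against 823 and 824, a difference of -0.20 as well. Its adjusted p over probe sets was 0.440, where the brightest had 0.400. The dim 1426085_a_at read 42.3 and 34.6 against 52.0 and 53.0, a difference of -0.45 (adjusted p = 0.161). No array of one compartment reached into the other at any of them, which holds for 59.6% of all probe sets above the filter. No difference passed the test.

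The GIT proteins are GTPase-activating proteins for Arf that carry the PIX exchange factors and PAK kinases to paxillin. Git1 has 1 probe set, which read 433 and 425 in pseudopodia and 418 and 485 in cell bodies. Its log2 difference was -0.069 (SE 0.14, 95% interval -0.44 to 0.30, limma adjusted p = 0.790), and the compartments overlapped. Without cell body replicate 2 that difference was 0.038, so its sign rests on 1 array.

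Git2 has 5 probe sets, and they did not read alike. The brightest, 1423391_at, read 856 and 805 in pseudopodia and 795 and 811 in cell bodies, a log2 difference of 0.048 (SE 0.13, 95% interval -0.28 to 0.38, limma adjusted p = 0.838). The next, 1435925_at, read 217 and 256 against 202 and 232, a difference of 0.12 (adjusted p = 0.692). The compartments overlapped at both.

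The 3 dim Git2 probe sets had lower means in pseudopodia. Probe set 1445037_at read 25.1 and 47.5 in pseudopodia and 59.2 and 76.1 in cell bodies, a difference of -0.94 (SE 0.34, adjusted p = 0.156). At 1459283_at the readings were 32.2 and 44.4 against 41.7 and 55.0, which overlap, and 1432160_at, under the filter and not tested, read 28.3 and 25.7 against 47.7 and 44.6. With the tested ones among them averaged in, the mean of the Git2 probe sets above the filter had a difference of -0.27 (adjusted p = 0.395), opposite in sign to the brightest one. The transcripts read by the dim probe sets were not analysed here.

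Over the 7 members with several probe sets above the filter, all probe sets of a gene lay on the same side of 0 in 5. The exceptions were Git2 and Parva. Among the 4916 genes of the array with several, 61.8% had all of theirs on one side.

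The wider pathway was taken as 51 partner genes in 6 role groups, of which 42 were tested. In pseudopodia 3 rose and 1 fell, so that 7.14% rose and 2.38% fell against 5.92% and 8.69% of all genes tested. That balance depends on the processing. The stricter filter leaves out the 3 dim genes that rose. With it, 32 partners were tested, 0 rose and 3 fell (Ptpra, the kinase Abl1 and the tensin Tns1). Of 7052 genes tested in that run, 847 rose and 1184 fell. With a variance prior that follows the mean level 3 partners rose and 3 fell, where 1081 of 11320 genes rose and 1483 fell. The median log2 difference of the partners was -0.035, and 20 lay above 0 and 22 below. Nedd9, Fermt1 and Pak1 were not analysed here, and Lpxn, Efs, Cass4, Parvg, Arhgef6 and Arhgap26 lay under the filter.

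**Figure D4:**
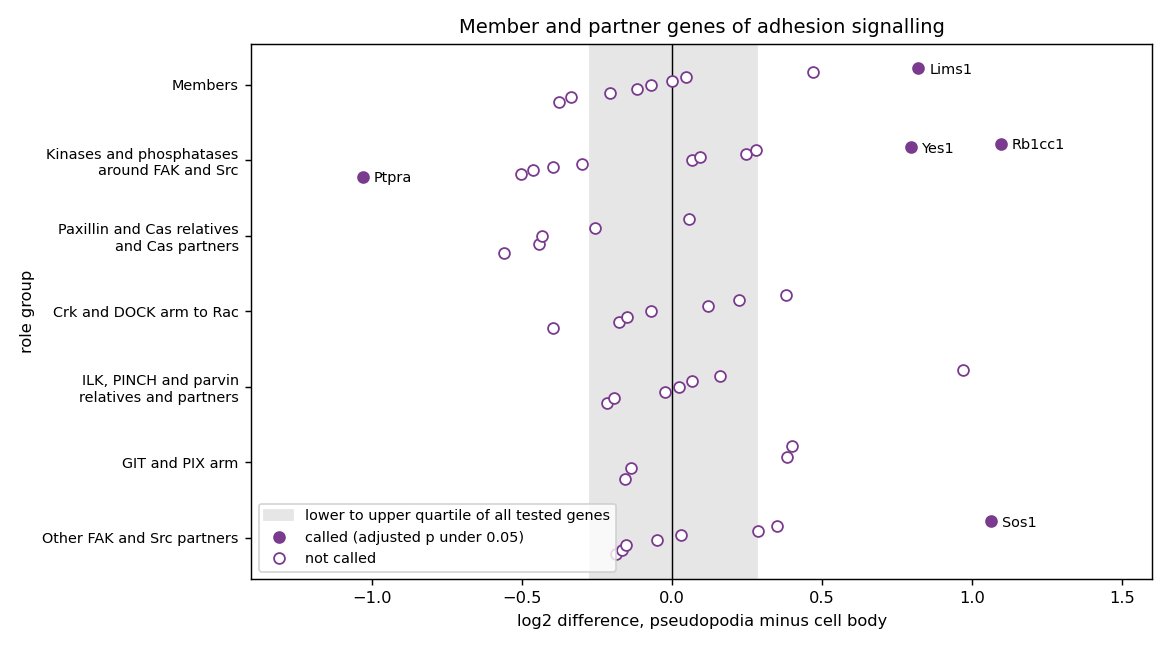
Log2 difference, pseudopodia minus cell body, of the 9 tested members and 42 tested partner genes by role; each point is a gene at its brightest probe set, filled where called, and the grey band runs from the lower to the upper quartile of all tested genes (-0.27 to 0.28). Lims1, Yes1, Rb1cc1 and Sos1 are the filled points above 0 and Ptpra is the one below.

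Among 11 kinases and phosphatases around FAK and Src, 2 rose (18.2%) and 1 fell (9.09%), against 5.92% and 8.69% of all genes tested. Ptpra, a receptor phosphatase that removes the inhibitory phosphate from Src, read 328 and 329.7 in pseudopodia and 752 and 601 in cell bodies. The pseudopodia arrays were close to each other and well under the cell body pair. Ptpra fell by 1.03 on the log2 scale (SE 0.16, limma adjusted p = 0.0234). Its other probe set stood at or near 20 on all arrays.

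Yes1, a kinase of the Src family, read 151 and 148 in pseudopodia and 85.0 and 86.2 in cell bodies. Replicates were almost equal, and Yes1 rose by 0.80 (SE 0.13, limma adjusted p = 0.0236). Of its 3 other probe sets, 1456843_at, under the filter, read 36.2 and 46.8 against 22.3 and 39.2, and the others stood at 20 throughout. Rb1cc1 encodes FIP200, a FAK inhibitor better known for starting autophagy. Rb1cc1 read 127 and 132 against 74.97 and 48.1 and rose by 1.10 (SE 0.24, adjusted p = 0.0458), although this probe set had an adjusted p of 0.0584 in the fit over probe sets.

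The remaining 8 of this group did not pass. Fyn, the other Src family kinase listed, had a log2 difference of 0.092 (adjusted p = 0.700). Csk, which phosphorylates the inhibitory site of Src, had -0.40 (adjusted p = 0.130), and Abl1, a kinase that also acts on Cas and Crk, had -0.50 (adjusted p = 0.0764).

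Of 8 other partners of FAK and Src, 1 rose (12.5% against 5.92% of all genes tested). Sos1, the exchange factor that Grb2 brings to Ras, read 167.3 and 167.1 in pseudopodia and 91.8 and 69.0 in cell bodies at its brightest probe set. It rose by 1.06 (SE 0.18, limma adjusted p = 0.0268). The other Sos1 probe set above the filter did not read the same way. It is 1421884_at, and it read 109 and 74.7 against 118 and 98.6, a difference of -0.26 (adjusted p = 0.537), and the mean of both was 0.40 (adjusted p = 0.216). Grb2 itself had a difference of 0.029 (adjusted p = 0.906), and the lowest of the group, Arhgap35, one of -0.19 (adjusted p = 0.512).

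The other 4 role groups, put together here because they held no call, had 23 tested genes. Of these, 6 (26.1%) had an unadjusted p under 0.05 against 31.4% of all genes, a share that the same choice affects. In the paxillin and Cas relatives, 5 genes ran from -0.56 for the tensin Tns1 (adjusted p = 0.0978) to 0.056 for Tgfb1i1, the paxillin relative Hic-5, and 4 of the 5 lay below 0. The arm from Crk to Rac ran from -0.39 for Elmo2 to 0.38 for Crk (adjusted p = 0.139 for each), and Rac1 had -0.15. Among the relatives and partners of the ILK complex, the adaptor Nck1 had the largest difference, 0.97 (adjusted p = 0.0810), on dim readings of 95.4 and 74.2 against 53.9 and 33.4. The lowest there was the phosphatase Ilkap at -0.22, and the PINCH paralogue Lims2 had 0.023. In the GIT and PIX arm, Pak3 had 0.40 (adjusted p = 0.209) and Pak2 0.38 (adjusted p = 0.136), while Arhgef7, the PIX exchange factor, had -0.16.

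Each of the 4 partner calls was lost with any 1 array left out, as were those of Lims1 and of all other genes. The log2 differences of the 4 partners then ran from -1.19 to -0.87 for Ptpra, from 0.78 to 0.81 for Yes1, from 0.78 to 1.41 for Rb1cc1 and from 0.86 to 1.27 for Sos1.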

How the data were processed

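The authors deposited 1 table of probe set intensities on a linear scale, a column per array, with a lowest value of 20 (probe set summary, scaling, programs: not given in the sources used here). Arrays were of the type Mouse430_2, per the file headers, which list the same chip lot, fluidics station, scanner and scan day for all 4, so no such batch could be fitted. The 64 control probe sets were left out, and 45037 remained. Genes were named from the platform annotation where it gave 1 symbol (932 probe sets had several, 9160 none), and the brightest probe set stood for a gene. Differences of log2(intensity + 1) were fitted by lmFit and eBayes of limma 3.58.1 (R 4.3.3; two-sided; 2 residual and 2.90 prior degrees of freedom), with Benjamini-Hochberg adjustment once over genes and once over probe sets. The script was tested on simulated data. Partner genes were named where called, plus the highest and lowest of a role group; others named are examples chosen after their values were seen. The members and lists were chosen with earlier results of these data known. The number of arrays limits the precision. Alternatives changed the filter, added constant, scaling, representative probe set, variance prior, replicate block and arrays.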

Additional observations from a re-analysis of the deposited data

How the results depend on the processing

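The calls depend on the filter, the variance prior and the presence of all 4 arrays. The directions of Lims1, Fermt2, Ilk, Bcar1, Pxn and Src held under every alternative run. Src, whose compartments overlapped, came as close to 0 as -0.0041. In the run without probe sets ending in _s_at or _x_at, another probe set stood for Bcar1, Pxn and Src. Without a filter limma called 2 genes in all (against 1654), 0 members, 0 member probe sets and 0 partners, with 3844, 4, 8 and 12 at an unadjusted p under 0.05. A variance prior that follows the mean level gave 2564 genes, 3 members (Lims1, Fermt2 and Ilk) and 5 member probe sets. Members called were 2 (Lims1 and Fermt2), against 1, with a stricter filter (2031 of 7052 genes called) and with quantile normalization (1736 of 11318). Member probe sets called were 4 of 14 tested with a stricter filter, against 1 of 20 in the main fit. They were 3 of 20 with a constant of 16, 3 of 20 with quantile normalization and 3 of 20 with median centring. The shares called over all probe sets were not computed in any alternative run, so these counts give no result about the members. Partners called were 3 (0 higher, 3 lower) with the stricter filter and 6 (3 and 3) with the mean-dependent prior, against 4 (3 and 1). With any 1 array left out, a fit in which the lone array of a compartment is assumed to vary like the others, limma called 0 genes, 0 members, 0 member probe sets and 0 partners, with 2797 to 2891, 1 to 2, 3 to 4 and 6 to 7 at an unadjusted p under 0.05. The median member difference then ran from -0.18 to 0.038, that of Git1 from -0.18 to 0.038, that of Parva from -0.17 to 0.16 and that of the second Src probe set from -0.12 to 0.093. The sign of Git2 turned with the mean of its probe sets (-0.27), that of Parva with that mean (0.096), quantile normalization (0.099) and median centring (0.039), and that of the second Src probe set with the latter pair (0.057 and 0.024). The causes of these shifts were not tested. The replicate block, in which the labels' replicate numbers enter the fit, gave 2202 genes, 1 member, 2 member probe sets and 5 partners; same-numbered arrays deviated together (correlation 0.34 over 11320 genes), but nothing in the labels says that a number marks a shared culture. Of 301 values for single genes or probe sets under the alternatives, 248 kept both direction and side of the threshold. Much of that count was fixed in advance. Changes of filter, variance prior and block leave a log2 difference as it was, and averaging a gene's probe sets leaves the single probe sets as they were. With 1 array left out all calls were lost, so a value not called could not change sides.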
